A study of Mus musculus with 9 samples.

Results

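Transcript levels of 10 genes of the Eph receptor and ephrin families were measured in cultured mouse cortical neurons with lowered Tdp-43, an RNA-binding protein that is encoded by Tardbp and controls splicing and RNA stability. They were 6 receptor genes (Epha3, Epha4, Epha5, Epha7, Ephb1 and Ephb2) and 4 ligand genes (Efna3, Efna5, Efnb2 and Efnb3), out of 16770 genes tested. A probe set, the group of probes that reads 1 stretch of an exon, was assigned to a gene where the array's annotation names that gene alone. A gene was given the average, in log2 units, of those probe sets whose mean over 9 arrays reached 6.07, the median of the table. Of 199 probe sets annotated to the 10 genes, 190 were kept, and all 10 genes were tested. The last probe set kept and the first left out both belong to Epha5, with mean log2 values of 6.23 and 6.05.

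The neurons came from C57BL/6 embryos on embryonic day 15 and were infected on day 5 of culture, for 4 h, with a lentivirus that carries a short hairpin RNA. One group received the hairpin shTdp-43-1 and another the hairpin shTdp-43-2, both aimed at Tdp-43, while the third received the control hairpin shCont. Each group has 3 arrays, made with RNA harvested on day 11, and none of the groups is free of virus. All cultures had also received AraC, which kills dividing cells, and were grown with BDNF and CNTF. Every sample is labelled as cortical neurons, and these labels were followed although the design description mentions motor neurons. The labels do not say whether the 3 arrays of a group come from separate cultures, so a p-value measures only the spread between these arrays, which may be technical.

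Eph receptors are receptor tyrosine kinases that bind ephrins on the surface of a neighbouring cell. A-type ephrins are held to the membrane by a lipid anchor and bind mostly EphA receptors. B-type ephrins span the membrane and bind mostly EphB receptors, and EphA4 binds ligands of both types. Contact sends signals into both cells, and in the developing cortex this guides axons, maps thalamic and callosal projections and shapes dendritic spines.

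The genes whose change the results turn on have promoters rich in G and C. RefSeq's promoter windows (build GRCm38.p6), 250 bases before to 50 after the annotated start, were found for 9 of the 10 genes; Efnb3 has no entry. The windows printed here, each along the strand of its gene, are those of Epha7 and Epha3, which were lower with both Tdp-43 hairpins, of Epha4, which differed most between the hairpins, and of Efnb2, which was higher with shTdp-43-2. Where the table holds 2 windows of a gene, as for Epha7 and Efna3, the first listed was used. Capitals mark the GC box (GGGCGG) and the CCAAT box (CCAAT), on either strand.
Epha7, chr4:28812881-28813180, plus strand: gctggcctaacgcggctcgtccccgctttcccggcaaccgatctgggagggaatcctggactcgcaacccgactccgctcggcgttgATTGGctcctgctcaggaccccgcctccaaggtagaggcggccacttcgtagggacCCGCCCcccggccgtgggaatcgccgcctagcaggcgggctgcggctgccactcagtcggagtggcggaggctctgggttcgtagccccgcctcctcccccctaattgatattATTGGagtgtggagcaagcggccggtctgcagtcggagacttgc
Epha3, chr16:63864126-63864425, minus strand: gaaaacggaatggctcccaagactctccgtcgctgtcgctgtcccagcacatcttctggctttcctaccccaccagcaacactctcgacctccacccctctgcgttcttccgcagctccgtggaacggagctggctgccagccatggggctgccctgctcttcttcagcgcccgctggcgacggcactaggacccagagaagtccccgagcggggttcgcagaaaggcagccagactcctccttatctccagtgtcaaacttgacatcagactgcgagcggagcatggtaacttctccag
Epha4, chr1:77515039-77515338, minus strand: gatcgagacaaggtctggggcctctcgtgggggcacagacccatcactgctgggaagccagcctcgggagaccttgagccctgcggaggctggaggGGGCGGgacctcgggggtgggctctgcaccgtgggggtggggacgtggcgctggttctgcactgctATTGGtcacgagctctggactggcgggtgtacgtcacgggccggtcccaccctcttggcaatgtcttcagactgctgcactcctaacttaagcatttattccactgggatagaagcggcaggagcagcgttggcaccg
Efnb2, chr8:8661193-8661492, minus strand: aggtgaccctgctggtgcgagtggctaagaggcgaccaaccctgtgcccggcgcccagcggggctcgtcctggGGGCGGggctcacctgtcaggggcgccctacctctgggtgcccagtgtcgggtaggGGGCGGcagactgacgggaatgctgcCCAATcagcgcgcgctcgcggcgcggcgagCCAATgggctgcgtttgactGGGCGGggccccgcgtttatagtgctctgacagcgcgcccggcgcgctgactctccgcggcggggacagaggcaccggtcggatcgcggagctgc

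G and C made up 67.0% of the Epha7 window, 60.7% of that of Epha3, 64.0% of that of Epha4 and 72.3% of that of Efnb2, and between 55.7% and 73.3% over the 9 genes. The median of all 32851 windows was 52.7%. Epha7 and Epha3, although both lower with each Tdp-43 hairpin, differed in these letters: the window of Epha7 holds 1 GC box and 2 CCAAT boxes, and that of Epha3 holds 0 of each. Efnb2 holds 3 GC boxes and 2 CCAAT boxes, and Epha4 holds 1 of each. A GC box was found in 6 of the 9 windows and a CCAAT box in 6 of 9, against 35.7% and 37.4% of all windows. The repeat TGTGTG, the DNA form of the UG-rich RNA that Tdp-43 binds, was searched on either strand, and matches of different motifs may share bases at their ends. It was found in 2 of the 9 windows, those of Ephb1 and Efna5, against 21.1% of all. In both windows the match lies on the opposite strand, as CACACA along the gene, and before the annotated start. Neither match is therefore a UG repeat in the RNA of its gene. These matches describe letters in a window and nothing about a factor.

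Tardbp averaged 8.21 ± 0.352 with shTdp-43-1 and 8.23 ± 0.337 with shTdp-43-2, against 9.92 ± 0.148 with shCont (log2 values, SD, n = 3 each), and the hairpins differed by 0.03, with a 95% interval from -0.38 to 0.43. Within a group, the correlation between arrays lay between 0.985 and 0.994 across genes. A pair of arrays, shTdp-43-1 replicate 2 and shTdp-43-2 replicate 3, deviated together from the means of their groups (r = 0.681 across genes), and each was the lowest of its group for Epha3, Epha4, Epha5, Epha7 and Efna5. Leaving out this pair ended the shTdp-43-2 calls of Epha3 and Efnb3 and the calls between the hairpins of Ephb1 and Efnb3 given later. It also added a call of Epha4 as higher with shTdp-43-1 than with shCont. The median change over all genes was 0.01 for shTdp-43-1 and -0.01 for shTdp-43-2.

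With shTdp-43-1, 2 of the 10 genes passed the test, Epha3 and Epha7, and both fell. With shTdp-43-2, 5 passed it: Epha3, Epha4, Epha7 and Efnb3 fell and Efnb2 rose. Passing means a limma adjusted p under 0.05 over all genes. Over all genes 11.1% passed with shTdp-43-1 (5.16% higher and 5.96% lower) and 21.9% with shTdp-43-2 (7.76% higher and 14.1% lower). Epha3 and Epha7 were called lower with both hairpins, as were 3.49% of all genes, and 0 were called higher with both, as were 2.95%. Both comparisons use the same 3 shCont arrays. At least 1 hairpin gave a call for 5 of the 10, where it did for 26.4% of all genes. Between the hairpins (shTdp-43-2 minus shTdp-43-1) 3 of the 10 differed, Epha4 and Efnb3 lower and Ephb1 higher with shTdp-43-2, where 11.5% of all genes did (7.31% lower and 4.22% higher). The 10 genes had median changes of -0.07 for shTdp-43-1 and -0.16 for shTdp-43-2.

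**Figure D1:**
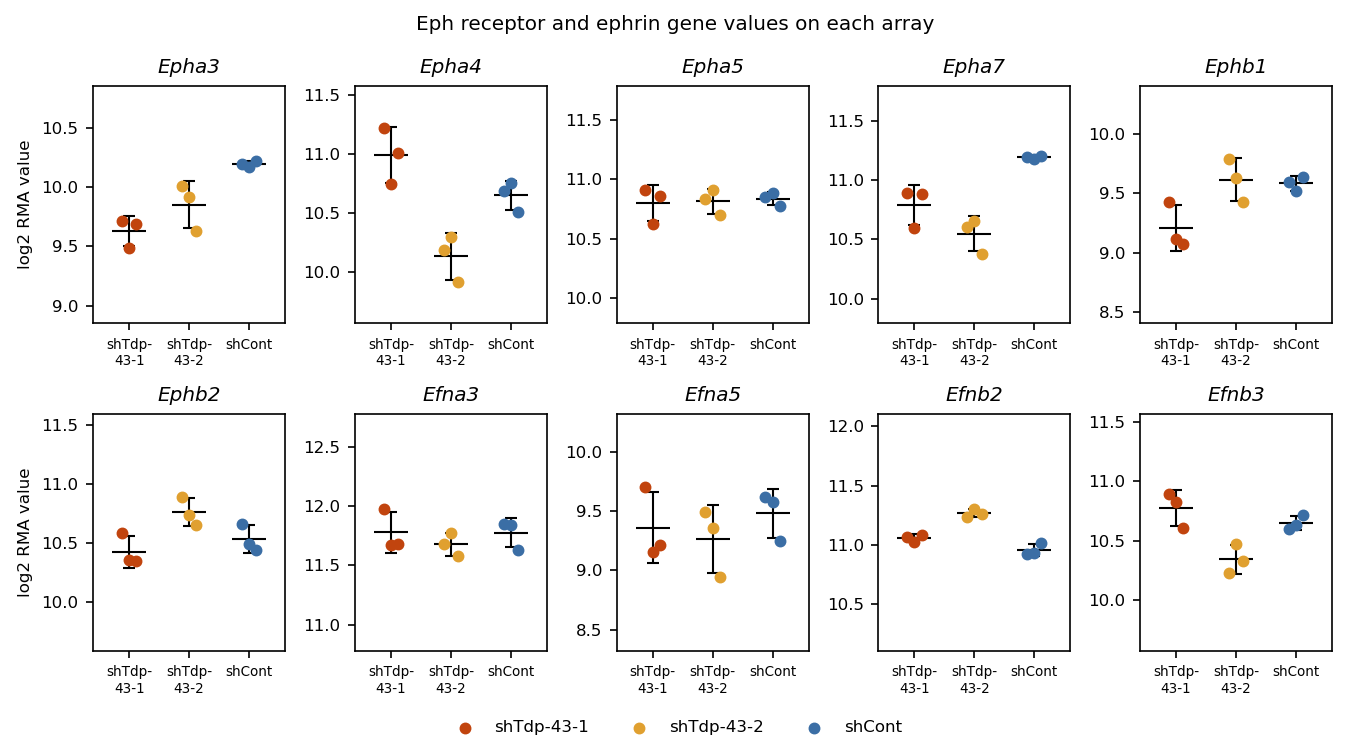
Log2 RMA value of each of the 10 genes on each array, with shTdp-43-1, shTdp-43-2 and shCont from left to right; points are arrays, and bars give the mean and SD of 3 arrays. Every panel spans 2 log2 units. The 3 shCont arrays of Epha3 and Epha7 lie above all 6 knockdown arrays, and for Epha4 the shTdp-43-2 arrays lie below all others.

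Among the EphA receptors, Epha7 fell with both hairpins. It encodes a receptor for ephrin-A5 that takes part in the mapping of cortical and thalamic connections. Its log2 values on the 3 arrays of each group were 10.89, 10.60 and 10.89 with shTdp-43-1 and 10.60, 10.66 and 10.38 with shTdp-43-2, against 11.20, 11.17 and 11.21 with shCont. All 6 knockdown arrays lay below the lowest shCont array. With shTdp-43-2 its level was 63.9% of that with shCont (log2 change -0.65 ± 0.102 SE, limma adjusted p = 0.00107). With shTdp-43-1 it was 75.8% (-0.40 ± 0.102 SE, limma adjusted p = 0.0288). In 19 other settings the call with shTdp-43-2 held each time and that with shTdp-43-1 held in 14. The shTdp-43-1 call ended without shTdp-43-1 replicate 2 (-0.30), without any 1 of the shCont replicates 1, 2 and 3 (-0.40, -0.41 and -0.39) and with the median of probe sets (-0.28). Between the hairpins Epha7 differed by -0.25, with a 95% interval from -0.47 to -0.02 and a limma adjusted p of 0.155.

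Epha3, whose product is a receptor for ephrin-A ligands in axon repulsion, also fell with both hairpins. Its log2 values were 9.72, 9.48 and 9.69 with shTdp-43-1 and 10.01, 9.92 and 9.63 with shTdp-43-2, against 10.19, 10.17 and 10.22 with shCont. Again no knockdown array reached the shCont arrays. The change was -0.57 ± 0.105 (SE) with shTdp-43-1, which is 67.5% of the shCont level (limma adjusted p = 0.00656), and -0.34 ± 0.105 with shTdp-43-2, which is 78.8% (limma adjusted p = 0.037). The call for shTdp-43-1 held in 19 of 19 other settings and that for shTdp-43-2 in 8 of 19. The shTdp-43-2 call ended on leaving out replicate 2 or 3 of that group (-0.38 and -0.23), shTdp-43-1 replicate 3 or any 1 shCont array, with arrays centred on their median (-0.26), with the median of probe sets, and with a lower dim filter or none. The difference between the hairpins was 0.22, with a 95% interval from -0.01 to 0.45 and a limma adjusted p of 0.21.

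Epha4 fell with shTdp-43-2 and showed the widest gap of the 10 genes between the hairpins. EphA4 guides corticospinal axons, acts at dendritic spines through ephrin-A3 on astrocytes, and is known as a modifier of motor neuron disease in fish and rodent models. Its log2 values were 11.22, 10.75 and 11.01 with shTdp-43-1, 10.18, 10.30 and 9.92 with shTdp-43-2, and 10.68, 10.75 and 10.51 with shCont. With shTdp-43-2 every array lay below every other array, while 1 of the shTdp-43-1 arrays lay within the range of shCont. The level with shTdp-43-2 was 70.0% of that with shCont (log2 change -0.52 ± 0.131 SE, limma adjusted p = 0.0152). With shTdp-43-1 the change was 0.34 ± 0.131 (SE), with a 95% interval from 0.05 to 0.63 and a limma adjusted p of 0.119. It was called in 1 of 20 settings, without the pair of arrays that deviated together (0.46, limma adjusted p = 0.0319). Between the hairpins Epha4 was 1.81-fold lower with shTdp-43-2 (log2 difference -0.86 ± 0.131 SE, 95% interval -1.14 to -0.57, limma adjusted p = 0.00195). That difference was called in all 20 settings, with values from -0.98 to -0.74. The call against shCont was kept in 15 of 19 other settings and ended when shTdp-43-2 replicate 3 was left out, without shCont replicate 1 or 2, and with the median of probe sets in place of their mean, where the limma adjusted p lay between 0.0524 and 0.0634.

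Epha5, a receptor for ephrin-A ligands in axon mapping and synapse formation, gave closely matched values in all groups. They ran from 10.62 to 10.91 with shTdp-43-1 and from 10.70 to 10.91 with shTdp-43-2, against 10.78 to 10.88 with shCont. Changes of -0.04 and -0.02 came with 95% intervals from -0.25 to 0.17 and from -0.23 to 0.18. Neither passed the test (limma adjusted p = 0.806 and 0.896).

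Of the EphB receptors, neither passed the test against shCont, and Ephb1 differed between the hairpins. Ephb1, whose product steers retinal axons at the optic chiasm, had log2 values of 9.43, 9.12 and 9.08 with shTdp-43-1 and of 9.79, 9.63 and 9.43 with shTdp-43-2, against 9.60, 9.52 and 9.64 with shCont. The shTdp-43-1 arrays lay below the shCont arrays and the shTdp-43-2 arrays spanned them. Its change was -0.38 ± 0.115 (SE) with shTdp-43-1 (limma adjusted p = 0.0566) and 0.03 ± 0.115 with shTdp-43-2 (limma adjusted p = 0.887). Ephb1 was 1.33-fold higher with shTdp-43-2 than with shTdp-43-1 (log2 difference 0.41 ± 0.115 SE, limma adjusted p = 0.0413), a call kept in 8 of 19 other settings. It was lost on leaving out any 1 shCont array, shTdp-43-1 replicate 2 or 3, or shTdp-43-2 replicate 1 or 2, with values from 0.32 to 0.41, without the pair of arrays that deviated together (0.46), with the median of probe sets (0.53), with no dim filter (0.34) and with only the compared groups in the fit. The change with shTdp-43-1 against shCont was itself called in 9 of 20 settings.

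Ephb2 encodes the receptor that binds NMDA receptors at excitatory synapses. It had log2 values of 10.58, 10.35 and 10.35 with shTdp-43-1 and of 10.89, 10.74 and 10.66 with shTdp-43-2, against 10.66, 10.50 and 10.44 with shCont. The shTdp-43-2 arrays all lay above the shTdp-43-1 arrays, and each set overlapped shCont. The changes were -0.11 (95% interval -0.32 to 0.11, limma adjusted p = 0.505) and 0.23 (0.01 to 0.45, limma adjusted p = 0.131). The change with shTdp-43-2 was called in 3 of 20 settings and that with shTdp-43-1 in 0. The hairpins differed by 0.33 ± 0.0995 (SE, limma adjusted p = 0.0511), a difference called in 9 of 20 settings.

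**Figure D2:**
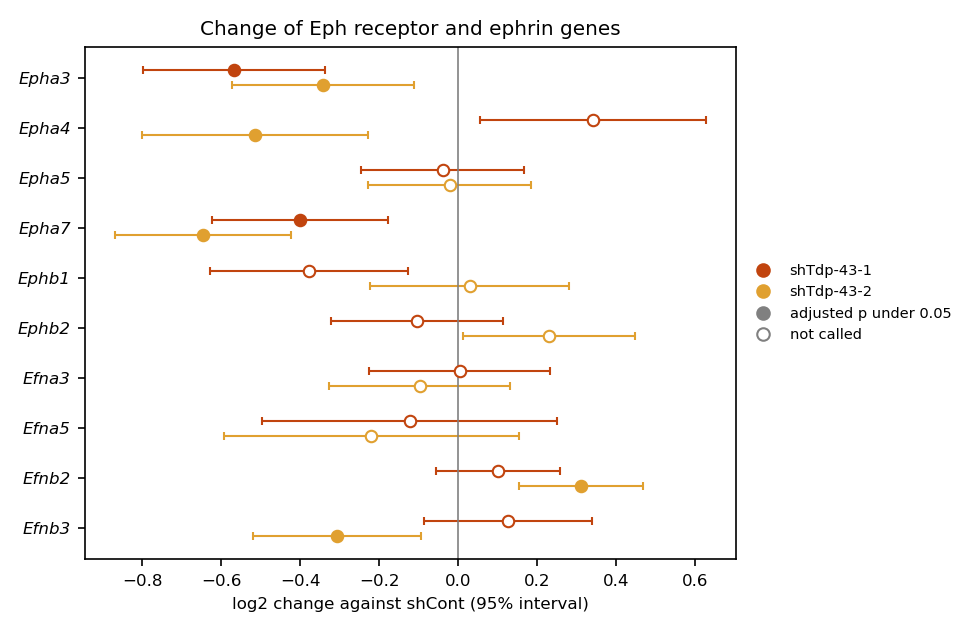
Log2 change against shCont, on the x axis, of each gene with shTdp-43-1 (upper marker) and shTdp-43-2 (lower marker); bars are 95% intervals of the limma fit, and filled markers passed an adjusted p of 0.05. Epha3 and Epha7 are filled to the left of 0 for both hairpins, and the intervals of Epha4 lie on opposite sides of 0.

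Of the B-type ligands, Efnb2 rose and Efnb3 fell with shTdp-43-2. Ephrin-B2 is a ligand at arterial walls and at synapses. Efnb2 had log2 values of 11.07, 11.02 and 11.09 with shTdp-43-1 and of 11.24, 11.31 and 11.26 with shTdp-43-2, against 10.93, 10.93 and 11.02 with shCont. The groups did not overlap, although the lowest shTdp-43-1 array and the highest shCont array agree to 2 decimals, and shTdp-43-2 was the highest. The level rose 1.24-fold under shTdp-43-2 (0.31 ± 0.0718 on the log2 scale, SE, limma adjusted p = 0.00937), a call kept in 18 of 19 other settings and lost with the median of probe sets (0.29). With shTdp-43-1 the change was 0.10 ± 0.0718, with a 95% interval from -0.06 to 0.26 and a limma adjusted p of 0.379. The hairpins differed by 0.21 ± 0.0718 (SE), with a limma adjusted p of 0.0841.

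Ephrin-B3, the midline barrier that EphA4-bearing corticospinal axons meet, followed Epha4 in the order of the groups. Efnb3 had log2 values of 10.89, 10.83 and 10.60 with shTdp-43-1, 10.22, 10.47 and 10.32 with shTdp-43-2, and 10.60, 10.63 and 10.71 with shCont. Only the shTdp-43-2 arrays lay apart, below both other groups. The level with shTdp-43-2 was 80.8% of that with shCont (log2 change -0.31 ± 0.097 SE, limma adjusted p = 0.0415), a call kept in 8 of 19 other settings. Leaving out any 1 shCont array, shTdp-43-1 replicate 2, or shTdp-43-2 replicate 1 or 3 ended it (-0.33 to -0.25), as did centring the arrays on their median (-0.22), the median of probe sets (-0.22) and a lower dim filter or none. The change with shTdp-43-1 was 0.13 ± 0.097 (limma adjusted p = 0.412). The difference between the hairpins was -0.43 ± 0.097 (SE, limma adjusted p = 0.0145) and held in 16 of 19 other settings. It was short of the threshold at -0.41 without shTdp-43-1 replicate 2, at -0.38 without shTdp-43-2 replicate 1 and at -0.40 without the pair of arrays that deviated together.

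The A-type ligands did not pass the test. Efna3, the ligand that astrocytes present to EphA4 on spines, ranged from 11.67 to 11.98 with shTdp-43-1 and from 11.58 to 11.77 with shTdp-43-2, against 11.63 to 11.85 with shCont. Its changes were 0.00 (95% interval -0.23 to 0.23) and -0.10 (-0.33 to 0.13). Efna5, a ligand of EphA3, EphA5 and EphA7 that maps thalamocortical and retinal axons, had the widest standard error of the 10 genes (0.171). It ranged from 9.15 to 9.70 with shTdp-43-1 and from 8.94 to 9.49 with shTdp-43-2, against 9.25 to 9.62 with shCont. Its changes were -0.12 (95% interval -0.50 to 0.25) and -0.22 (-0.59 to 0.15), intervals wide enough to hold changes of the size seen for Epha3 with shTdp-43-2. For both genes all 3 groups overlapped. In all, the arrays did not overlap between shTdp-43-1 and shCont for 4 of the 10 genes (35.0% of all genes), between shTdp-43-2 and shCont for 5 (38.7%) and between the hairpins for 4 (27.9%).

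The kept probe sets of each gene showed whether its change was shared by most of them. Their positions were not used, so the counts below do not show that a whole transcript was covered. All 23 probe sets of Epha3 and all 27 of Epha7 had a lower mean with each Tdp-43 hairpin than with shCont. Probe sets of one gene share their RNA and arrays, so these counts describe evenness and are no replicates. For Epha3 the changes ran from -0.78 to -0.22 with shTdp-43-1 and from -0.63 to -0.17 with shTdp-43-2. For Epha7 they ran from -1.01 to -0.12 and from -1.17 to -0.32. For Epha4, 22 of 23 probe sets were higher with shTdp-43-1 than with shCont, while all 23 were lower with shTdp-43-2, and all 23 were lower with shTdp-43-2 than with shTdp-43-1. Efnb2 had 11 of 13 probe sets higher with shTdp-43-1 and all 13 higher with shTdp-43-2, and Efnb3 had 9 of 12 higher with shTdp-43-1 and all 12 lower with shTdp-43-2. Epha5 split evenly, with 14 of 29 lower with either hairpin. Ephb1 was lower at 20 of 22 probe sets with shTdp-43-1 and at 11 of 22 with shTdp-43-2, and Ephb2 was lower at 19 of 24 with shTdp-43-1 and higher at 22 of 24 with shTdp-43-2.

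**Figure D3:**
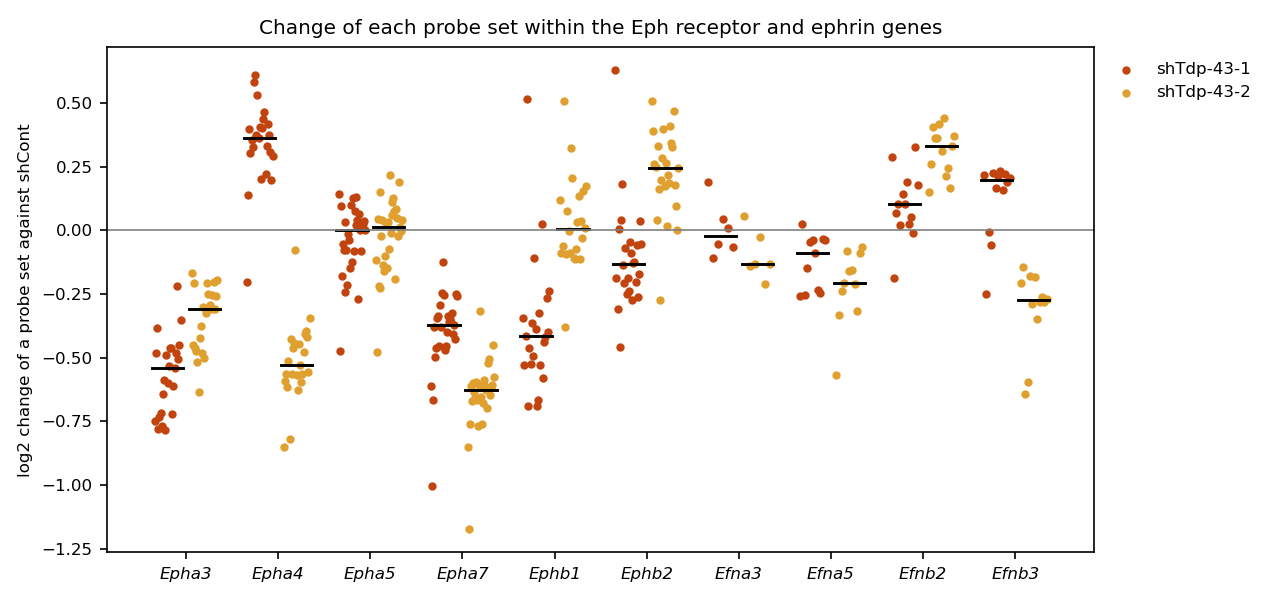
Log2 change of every kept probe set against shCont (y axis), for each gene with shTdp-43-1 on the left and shTdp-43-2 on the right; a point is 1 probe set, ordered by its mean level from left to right, and the line is the median. The points of Epha3 and Epha7 all lie below 0, and those of Epha4 with shTdp-43-2 lie below 0 while 22 of 23 with shTdp-43-1 lie above it.

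Set against the rest of its gene (limma diffSplice, adjusted over 248701 probe sets), 2 of the 190 probe sets changed with shTdp-43-1, where 0.494% of all probe sets did. Both lie in EphB receptor genes and both rose relative to the gene. Probe set 4316510 of Ephb1 had log2 values of 8.43, 8.56 and 8.65 with shTdp-43-1 and of 8.67, 8.47 and 8.47 with shTdp-43-2, against 7.76, 8.12 and 8.21 with shCont. All 6 knockdown arrays lay above the shCont arrays. With shTdp-43-1, where the rest of Ephb1 was lower, it rose relative to the rest by 0.94 ± 0.2 (SE, diffSplice adjusted p = 0.00437). With shTdp-43-2 the relative change was 0.50 ± 0.2 (diffSplice adjusted p = 0.339). Probe set 5430075 of Ephb2 had 7.47, 6.81 and 6.82 with shTdp-43-1 and 7.14, 6.84 and 6.75 with shTdp-43-2, against 6.17, 6.73 and 6.31 with shCont. It is dim, close to the filter at 6.07. Its relative change was 0.77 ± 0.172 (SE, diffSplice adjusted p = 0.00755) with shTdp-43-1 and 0.29 ± 0.172 with shTdp-43-2 (diffSplice adjusted p = 0.857).

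Each call rests in part on single arrays. Without shCont replicate 1, which has the lowest value of both probe sets, neither was called (0.79 for Ephb1 and 0.58 for Ephb2). The Ephb1 call was also lost without shTdp-43-1 replicate 2 or 3 (0.88 and 0.81), and the Ephb2 call without shTdp-43-1 replicate 1 (0.62) or shCont replicate 3 (0.77). With shTdp-43-2, diffSplice called 0 of the 190 (1.24% of all), and between the hairpins it called 0 (0.440% of all). An unadjusted p under 0.05 was found for 8 of the 190 with shTdp-43-1 (5.99% of all probe sets), for 6 with shTdp-43-2 (7.43%) and for 8 between the hairpins (5.31%). The positions of these probe sets in the transcripts were not used here, so the exon or untranslated region they read is not given.

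**Figure D4:**
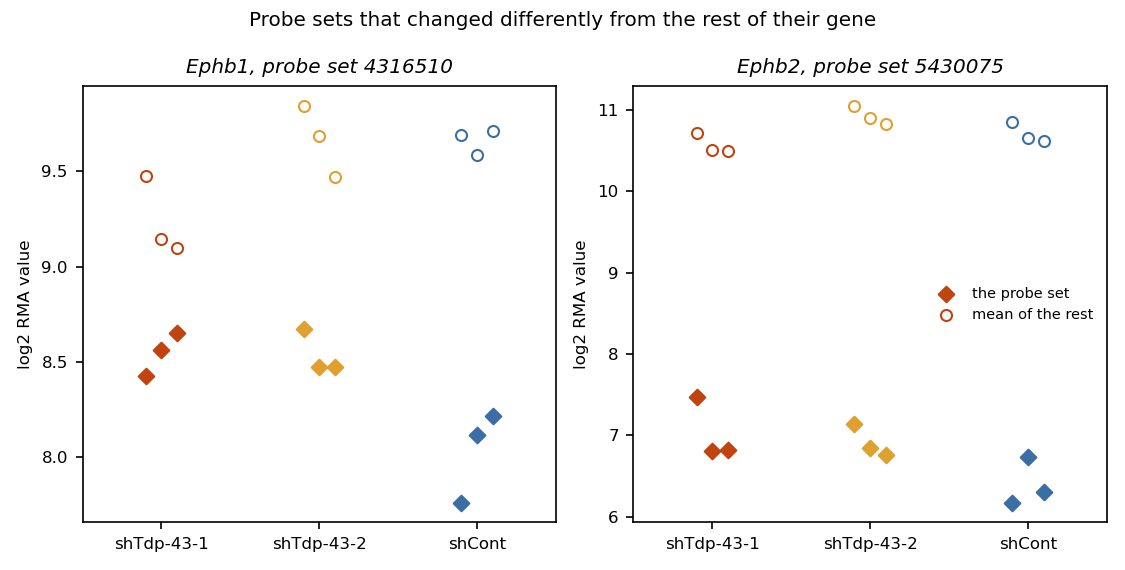
Log2 RMA value on each array of probe set 4316510 of Ephb1 (left panel) and 5430075 of Ephb2 (right panel), as filled diamonds, beside the mean of the other kept probe sets of the same gene, as open circles. For Ephb1 the diamonds are higher with both Tdp-43 hairpins than with shCont, while the circles are lower with shTdp-43-1.

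The rest of the family held 12 further genes, all tested. With shTdp-43-1, limma called 0 of the 12, and 3 had an unadjusted p under 0.05, as did 27.6% of all genes. With shTdp-43-2, 1 rose and 2 fell, beside 7.76% of all genes higher and 14.1% lower. Epha6, whose product is a receptor for ephrin-A ligands, had log2 values of 9.94, 9.43 and 9.76 with shTdp-43-1 and of 8.91, 9.06 and 8.59 with shTdp-43-2, against 9.54, 9.74 and 9.65 with shCont. As with Epha4, every shTdp-43-2 array lay below all others: the change was -0.78 ± 0.143 (SE, limma adjusted p = 0.00246) with shTdp-43-2 and 0.07 ± 0.143 with shTdp-43-1 (limma adjusted p = 0.771), and the hairpins differed by -0.86 ± 0.143 (limma adjusted p = 0.00311). Both calls of Epha6 were kept in 19 of 19 other settings. Epha10, which encodes a receptor without kinase activity, rose by 0.37 ± 0.103 on the log2 scale with shTdp-43-2 (SE, limma adjusted p = 0.0246). Its change with shTdp-43-1 was 0.29 ± 0.103 (limma adjusted p = 0.0898). Efna1 fell by 0.27 ± 0.0807 on the log2 scale with shTdp-43-2 (limma adjusted p = 0.0311), a call kept in 8 of 18 other settings. Leaving out 1 array ended the call of Epha10 in 3 cases (shTdp-43-2 replicate 1 and shCont replicates 2 and 3, with 0.28 to 0.39) and that of Efna1 in 4 (shTdp-43-2 replicates 1 and 3 and shCont replicates 2 and 3, with -0.28 to -0.22).

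Downstream of the receptors, exchange factors and other regulators of small GTPases held genes that rose and genes that fell. Of 15 tested, 1 rose and 2 fell with shTdp-43-1, and 1 rose and 4 fell with shTdp-43-2. Over all genes, 5.16% rose and 5.96% fell with shTdp-43-1, and 7.76% rose and 14.1% fell with shTdp-43-2. Ngef, which encodes ephexin-1, the exchange factor that binds EphA4, had 10.16, 10.05 and 9.97 with shTdp-43-1 and 10.14, 10.17 and 10.19 with shTdp-43-2, against 9.58, 9.50 and 9.47 with shCont. It rose 1.46-fold in the first of these groups and 1.57-fold in the other (log2 changes 0.54 and 0.65, SE 0.0786 each, limma adjusted p = 0.00183 and 0.000197). Vav3, an exchange factor recruited to active Eph receptors for their uptake, had 7.59, 7.23 and 7.23 with shTdp-43-1 and 8.16, 7.85 and 7.54 with shTdp-43-2, against 8.58, 8.45 and 8.47 with shCont. Its level was 45.1% and 63.7% of that with shCont (log2 change -1.15 and -0.65, each ± 0.146 SE, limma adjusted p = 0.000853 and 0.00798). The calls of Ngef and Vav3 with each hairpin were kept in 19 of 19 other settings. Vav2, its paralog, fell by 0.69 ± 0.114 on the log2 scale under shTdp-43-2, with a limma adjusted p of 0.00135, and its value for shTdp-43-1 was -0.37 (limma adjusted p = 0.0603). Itsn2, an exchange factor for Cdc42, fell by 0.47 ± 0.0959 with shTdp-43-2 (limma adjusted p = 0.00451). Chn1, the chimaerin that inactivates Rac below EphA4, fell by 0.38 ± 0.0901 on the log2 scale with shTdp-43-1 (SE, limma adjusted p = 0.0207), and its value for shTdp-43-2 was -0.21 (limma adjusted p = 0.129). Chn1 was named after its values were seen, and its call was not followed over the other settings.

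Tiam1, an exchange factor for Rac that was also singled out after its values were seen, showed the same order of groups as Epha4. Its values were 10.13, 9.80 and 9.96 with shTdp-43-1, 9.30, 9.38 and 9.07 with shTdp-43-2, and 9.66, 9.65 and 9.62 with shCont. No groups overlapped. The change was 0.31 ± 0.104 (SE, limma adjusted p = 0.0777) with shTdp-43-1 and -0.40 ± 0.104 with shTdp-43-2 (limma adjusted p = 0.0181), and the hairpins differed by -0.71 ± 0.104 (limma adjusted p = 0.00155), a difference kept in 19 of 19 other settings. The call against shCont ended without shTdp-43-2 replicate 3 (-0.31), without shCont replicate 1 or 2 (-0.39 and -0.40) and with the median of probe sets (-0.43).

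Among 18 adaptors, kinases and phosphatases, 2 fell with each hairpin and 1 rose with shTdp-43-2. In either direction, 11.1% of all genes were called with shTdp-43-1 and 21.9% with shTdp-43-2. Anks1, the adaptor Odin that binds EphA receptors, fell by 0.47 ± 0.0925 on the log2 scale under shTdp-43-1 (SE, limma adjusted p = 0.00922) and by 0.60 ± 0.0925 under shTdp-43-2 (limma adjusted p = 0.000943), and both calls were kept in 19 of 19 other settings. Yes1, a kinase of the Src family, fell by 0.30 and 0.31, each ± 0.0734 (limma adjusted p = 0.0239 and 0.0106), and the shTdp-43-1 call held in 11 of 19 other settings. It ended without any 1 of the shTdp-43-1 arrays or shCont replicate 2 or 3 (-0.31 to -0.27). Grb10, an adaptor that binds EphB1, rose by 0.31 ± 0.08 with shTdp-43-2 (limma adjusted p = 0.0176), a call that ended without shTdp-43-2 replicate 1 or shCont replicate 2 (0.28 and 0.29) and with the median of probe sets (0.29, limma adjusted p = 0.231). Its change with shTdp-43-1 was -0.01.

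Of 5 PDZ proteins and proteases tested, Adam10 fell with shTdp-43-1 and Pick1 with shTdp-43-2, where 11.1% and 21.9% of all genes were called. Adam10, the protease that cuts A-type ephrins bound to EphA3, had 10.40, 10.50 and 10.58 with shTdp-43-1 and 11.05, 11.15 and 11.06 with shTdp-43-2, against 10.99, 11.01 and 11.04 with shCont. Its level with shTdp-43-1 was 69.6% of that with shCont (log2 change -0.52 ± 0.0769 SE, limma adjusted p = 0.002), its change with shTdp-43-2 was 0.07 ± 0.0769 (limma adjusted p = 0.549), and the hairpins differed by 0.60 ± 0.0769 (limma adjusted p = 0.000701). Pick1, a PDZ protein that binds B-type ephrins, fell by 0.35 ± 0.0728 with shTdp-43-2 (limma adjusted p = 0.00568). Over the 38 signalling partners, 1 rose and 5 fell with shTdp-43-1 and 2 rose and 7 fell with shTdp-43-2, beside the shares of all genes given above. Their median changes were -0.02 and -0.003.

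**Figure D5:**
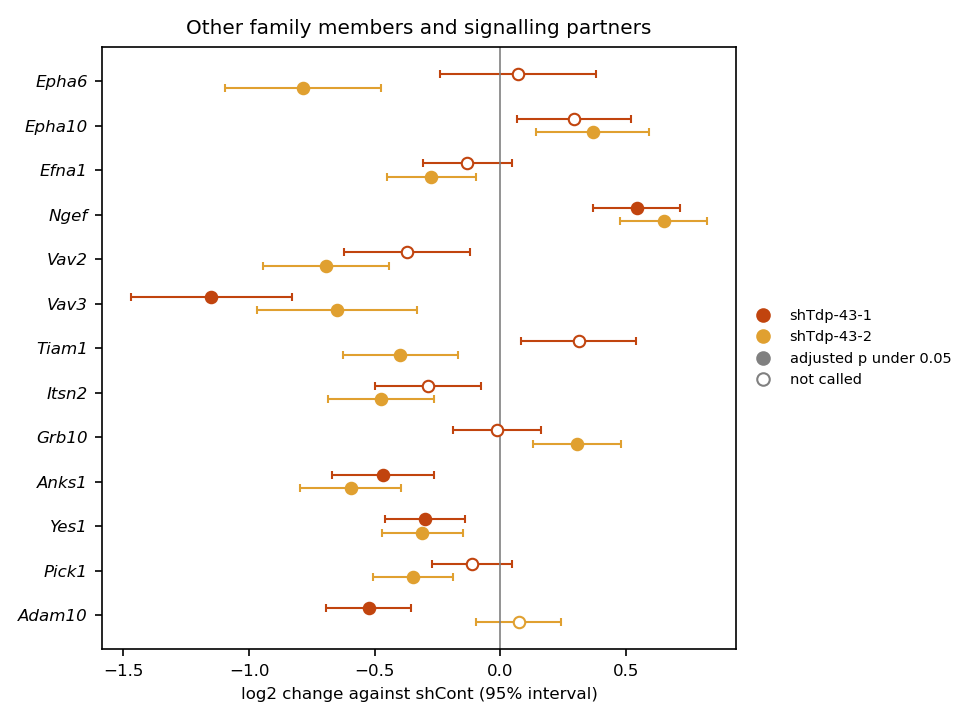
Log2 change against shCont (x axis, 95% intervals of the limma fit) of the named further family members and signalling partners, except Chn1, which is not drawn. The upper marker is shTdp-43-1 and the lower marker shTdp-43-2, and filled markers passed an adjusted p of 0.05. Ngef lies to the right and Vav3, Anks1 and Yes1 to the left of 0 with both hairpins, while Epha6, Tiam1 and Adam10 separate the hairpins.

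Eph receptors and ephrins are made by several cell types, and in cultures read in bulk fewer cells of a type and less RNA per cell cannot be told apart. Excitatory neuron markers were far above the median of the table, with a mean log2 level over 7 genes of 10.35 to 10.59 with shTdp-43-1 and 10.27 to 10.42 with shTdp-43-2, against 10.44 to 10.57 with shCont; 1 of the 7 rose and 1 fell with shTdp-43-1, and 1 fell with shTdp-43-2. Of 8 inhibitory neuron markers 2 rose and 1 fell with shTdp-43-1 and 1 rose and 3 fell with shTdp-43-2 (mean level 10.13 to 10.36 and 10.04 to 10.06, against 10.15 to 10.34 with shCont). Astrocyte markers were bright as well, and 1 of 8 fell with shTdp-43-1 and 3 with shTdp-43-2 (10.23 to 10.27 and 10.11 to 10.20, against 10.25 to 10.43). The 7 fibroblast and pericyte markers had means of 8.59 to 8.69 with shTdp-43-1 and 8.36 to 8.49 with shTdp-43-2, against 8.82 to 8.87 with shCont, and 2 fell with shTdp-43-1 and 4 with shTdp-43-2. Progenitor markers ran from 8.68 to 8.82 and from 8.89 to 9.10, against 8.87 to 8.91, where Eomes fell with both hairpins and Nes rose with shTdp-43-2. The other lists were endothelial cells (6.995 to 7.21 and 7.13 to 7.30, against 7.02 to 7.09, with Tek higher with shTdp-43-2), the oligodendrocyte lineage (10.12 to 10.24 and 10.02 to 10.21, against 10.10 to 10.16) and microglia (7.23 to 7.53 and 7.05 to 7.56, against 7.22 to 7.28), with 0 of 5 and 0 of 6 called in the last 2. Over all genes 5.16% rose and 5.96% fell with shTdp-43-1, 7.76% rose and 14.1% fell with shTdp-43-2, and 3.49% fell with both. The lists are short and were not tested against these shares. RMA values have no true 0, so no marker can be read as absent. Median changes were below 0 with both hairpins, as were those of Epha3 and Epha7, for the lists of fibroblasts and pericytes (-0.29 with shTdp-43-1 and -0.56 with shTdp-43-2), excitatory neurons (-0.22 and -0.10), inhibitory neurons (-0.01 and -0.11) and astrocytes (-0.02 and -0.18). Members of a list did not all go one way: of the 7 fibroblast and pericyte markers, 4 were below 0 with each hairpin, while the collagen genes Col1a1, Col1a2 and Col3a1 had changes between 0.14 and 0.15 with either. Of the 8 inhibitory and the 8 astrocyte markers, 4 of each list were below 0 with shTdp-43-1 and 5 of each with shTdp-43-2. For the 7 excitatory markers it was 5 with each hairpin. Neurod6 of the excitatory list, Aqp4 of the astrocyte list and Pdgfrb and Rgs5 of the fibroblast and pericyte list fell with both hairpins. In contrast, Gad2 of the inhibitory list rose with both (0.69 and 0.65, limma adjusted p = 0.00432 and 0.00264). Camk2a of the excitatory list rose with shTdp-43-1 (0.55, limma adjusted p = 0.00272). Slc17a7 of that list had changes of 0.43 and 0.36 that were not called. The part of these markers in the changes of the Eph and ephrin genes was not tested.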

How the data were processed

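The deposited table gives, for each array and probe set, a log2 value that the authors computed by RMA (Affymetrix Expression Console). The submitters' processing notes name these tools and the build mm9. RMA subtracts background, brings arrays to one distribution and pulls dim probe sets towards background, so a change shared by most probes is largely removed. The array medians over all probe sets still differed. They were 6.15 to 6.19 with shTdp-43-1, 6.06 to 6.09 with shTdp-43-2 and 6.04 to 6.06 with shCont. Over the tested genes they were 8.82 to 8.92, 8.75 to 8.89 and 8.86 to 8.94, in the same order. The sources used here give no versions. The deposited table has 0 unused sample columns, and 3 arrays per group limit the precision.

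Of 1256831 probe sets, 318760 name 1 gene, 6684 several and 931387 none. Symbols were updated through a RefSeq table (GRCm38.p6, names only), which moved 0 probe sets into the 10 genes. Probe sets with a mean at or above 6.07 were averaged per gene where at least 3 remained (16770 genes, 248701 probe sets). All 3 groups were fitted together in limma 3.58.1 (R 4.3.3; lmFit, eBayes, 6 residual degrees of freedom), with Benjamini-Hochberg adjustment over all genes; diffSplice set each probe set against the rest of its gene. An exact permutation test of 3 arrays against 3 cannot go below 0.1 and was not used. The code was tested on simulated data.

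The members and the lists (12 further family members, 39 signalling partners, 8 lists of cell type markers) were chosen with earlier results of these data known. Named were the 10 genes, Tardbp, every member probe set called against its gene and up to 4 called genes of each list; others are marked. Alternatives were 3 other dim filters, 2 scalings, the median of probe sets, fits of the compared groups alone, a variance trend, the replicate number as a block, and each array left out. An array outside a comparison enters only the shared estimate of the spread. Leaving it out changes the adjusted p of that comparison and not the difference. Same-numbered arrays correlated from -0.383 to 0.593 in their deviations from group means, so the numbers were not taken as pairs. Sequences are from RefSeq.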

Additional observations from a re-analysis of the deposited data

Results flagged for a closer look

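The change against shCont differed between the hairpins, by limma's test of shTdp-43-2 minus shTdp-43-1, for 3 of the 10 genes. The difference was -0.86 for Epha4 (adjusted p = 0.00195), -0.43 for Efnb3 (adjusted p = 0.0145) and 0.41 for Ephb1 (adjusted p = 0.0413), on the log2 scale. Among the further genes named above it was -0.86 for Epha6 (limma adjusted p = 0.00311), -0.71 for Tiam1 (0.00155), 0.60 for Adam10 (0.000701), 0.50 for Vav3 (0.0473) and 0.32 for Grb10 (0.0244). The call of Vav3 ended without any 1 shCont array, shTdp-43-1 replicate 2 or 3, or shTdp-43-2 replicate 1 or 2, and that of Grb10 without shTdp-43-1 replicate 2 or 3 or shTdp-43-2 replicate 1 or 2 (0.28 to 0.30). In 11.5% of all genes the hairpins differed at the same threshold, and Tardbp itself differed by 0.03 (limma adjusted p = 0.956). The cause of these differences was not tested.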

How the results depend on the processing

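Over 34 calls of single genes and probe sets, with up to 19 alternatives each, 0 of 638 values changed sign. Of these values 535 stayed past the threshold and 103 did not, and the cause was not tested. Only results that had passed the threshold above were followed, on mostly the same arrays, so a change of sign was unlikely from the start. Some uncalled changes did change sign, as that of Epha5 with shTdp-43-1 (-0.10 to 0.05). Counts of called Eph and ephrin genes ranged on leaving out 1 array from 1 to 3 with shTdp-43-1 (2 with all arrays), from 2 to 5 with shTdp-43-2 (5), from 1 to 5 between the hairpins (3) and from 0 to 2 with both hairpins (2); called probe sets ranged from 0 to 3 with shTdp-43-1, from 0 to 1 with shTdp-43-2 and from 0 to 1 between the hairpins. In the further lists the counts ranged from 4 to 10 (6), from 8 to 13 (12) and from 3 to 7 (6). With the median of probe sets the members called numbered 1 with shTdp-43-1, 1 with shTdp-43-2 and 0 with both. With a dim filter set lower, at the 25th percentile, or with none they were 3 with shTdp-43-2 and 1 with both. With arrays centred on their median they were 5 between the hairpins and 1 with both, and with a variance trend 5 between the hairpins. With shTdp-43-1 replicate 2 left out together with shTdp-43-2 replicate 3, an alternative chosen once the data had been seen, they were 3 with shTdp-43-2, 1 between the hairpins and 1 with both. In the further lists, shTdp-43-1 called 11 genes when filtered at the 75th percentile and 10 with quantile normalization, and between the hairpins 3 were called with no filter and 3 with only the compared groups fitted. With the replicate number as a block, diffSplice called 1 probe set with shTdp-43-2 and 2 between the hairpins, where with all arrays and no block it called 0. The block left the member counts within 1.5 times of those above (3, 6, 4 and 2). Against shCont it added calls of Ephb1 with shTdp-43-1 and of Ephb2 with shTdp-43-2 (limma adjusted p = 0.0293 and 0.039). The 75th percentile filter left no value for Efna1 or for probe set 5430075 of Ephb2, and diffSplice was not run with the variance trend, the median of probe sets or only the compared groups.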
